A study of Mus musculus with 12 samples.

Results

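Kappa light chain variable segments were followed in RNA sequencing libraries of blood and spleen from mice lacking nuclear myosin 1 (KO) and from wild-type (WT) mice. The members were all genes whose symbol begins with Igkv and a digit and that held at least 10 counts summed over the 12 libraries, which gave 110 of the 160 Igkv entries and of 46603 gene identifiers in all. Each segment is described by its usage share, meaning its percentage of all Igkv counts in a library. The study set KO against WT in blood and in spleen, with 3 libraries in each of 4 groups: KO blood, WT blood, KO spleen and WT spleen. All mice were C57/Bl6 animals aged 8 months, per the labels. Blood was drawn from the submandibular vein, spleen RNA came from a tip fragment of about 5 mm3, and 500 ng of RNA entered each library. The labels name the genotype only as NM1 WT or NM1 KO and do not say how the allele was made. Whether each library came from a separate mouse is not stated, so p-values measure the spread between libraries.

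A B cell builds the variable domain of its kappa light chain by joining an Igkv segment to an Igkj segment, and the product is spliced to the constant exon Igkc. Each clone keeps its choice, so the Igkv segments in a tissue's RNA report which clones are present, weighted by how much antibody RNA they hold. Plasma cells, which secrete antibody, carry far more of this RNA than resting B cells. In bulk libraries more cells of a clone and more RNA per cell cannot be told apart.

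The sequences below are shown because they are the 7 segments that reached 5% of Igkv counts in any library. Each line gives the last 75 coding bases of the segment, 5′ to 3′ on the coding strand, from the GENCODE vM21 transcripts of GRCm38. Capitals are the 26 bases from the last cysteine codon to the end. Those after that codon are what the germline segment gives to the third complementarity-determining loop, a main contact with antigen.
Igkv5-39: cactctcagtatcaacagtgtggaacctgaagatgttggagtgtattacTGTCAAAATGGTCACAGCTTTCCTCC
Igkv1-135: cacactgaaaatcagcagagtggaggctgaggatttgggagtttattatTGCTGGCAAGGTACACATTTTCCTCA
Igkv10-96: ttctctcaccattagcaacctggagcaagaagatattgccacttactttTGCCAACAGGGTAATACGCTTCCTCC
Igkv1-117: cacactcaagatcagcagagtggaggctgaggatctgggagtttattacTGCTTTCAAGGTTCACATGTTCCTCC
Igkv6-15: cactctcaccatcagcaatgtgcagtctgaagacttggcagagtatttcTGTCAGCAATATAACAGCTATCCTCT
Igkv14-111: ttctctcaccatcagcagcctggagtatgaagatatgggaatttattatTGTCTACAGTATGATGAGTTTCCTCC
Igkv3-4: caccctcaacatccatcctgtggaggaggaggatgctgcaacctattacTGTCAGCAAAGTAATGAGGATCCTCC

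All 110 members lie on chromosome 6 of GRCm38, 43 on the plus and 67 on the minus strand. Igkv5-39 is at chr6:69900424-69900977 on the minus strand, Igkv10-96 at chr6:68631963-68632442 on the minus strand and Igkv6-15 at chr6:70406469-70406992 on the minus strand. On the plus strand, Igkv1-135 is at chr6:67609713-67610508, Igkv1-117 at chr6:68121046-68121827, Igkv14-111 at chr6:68256389-68256869 and Igkv3-4 at chr6:70671788-70672377. The annotation calls 98 members variable genes and 12 pseudogenes. Of the 50 entries below 10 counts, 2 are annotated as genes and 48 as pseudogenes, 17 had no count, and together they held 107 counts. Next to the threshold, the pseudogene Igkv4-56 had 10 counts and Igkv1-35 had 11, while Igkv1-131 and the pseudogene Igkv12-40 had 9 each outside it.

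Similar segments can share reads. Among the members 44 had every 75-base window unique within the Igkv set and 26 had fewer than 80% unique. Igkv1-117 and Igkv1-110, which are 97.2% identical, each had 69.1% or less unique windows, so the split of counts between them is uncertain. Igkv5-39 was unique in 100% of windows. Its nearest relative was Igkv5-45 at 90.5% identity, and the last 150 coding bases are shown with those of Igkv5-45 and Igkv5-43 because Igkv5-39 carried the largest shares. Capitals mark bases that differ from Igkv5-39. Each relative differed at 15 positions, and the stretch shown was the same in both relatives.
Igkv5-39: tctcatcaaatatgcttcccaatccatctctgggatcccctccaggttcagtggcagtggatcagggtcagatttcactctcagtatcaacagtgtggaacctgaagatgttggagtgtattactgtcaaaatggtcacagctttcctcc
Igkv5-45: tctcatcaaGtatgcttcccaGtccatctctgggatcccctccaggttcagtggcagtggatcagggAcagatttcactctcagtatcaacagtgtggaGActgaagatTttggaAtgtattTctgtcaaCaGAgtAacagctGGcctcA
Igkv5-43: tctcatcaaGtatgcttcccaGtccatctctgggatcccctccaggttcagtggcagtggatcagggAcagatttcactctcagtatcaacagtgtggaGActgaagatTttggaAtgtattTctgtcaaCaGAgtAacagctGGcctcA

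The libraries fall into 2 kinds that cross both labels. Globin genes took 48.9% to 56.1% of counts in 6 globin-rich libraries (KO 02 and KO 03 blood, WT 01 blood, KO 03 spleen, WT 02 and WT 04 spleen). In the 6 globin-poor libraries (KO 04 blood, WT 03 and WT 04 blood, KO 01 and KO 04 spleen, WT 01 spleen) they took 0.846% to 5.89%. A library was called globin-rich above 25%. Total counts were 9.32 to 12.1 M in the globin-rich and 23.1 to 28.2 M in the globin-poor libraries (M, 10 to the power of 6). Red pulp macrophages are cells of the spleen. Their 7 markers summed to between 18.9 and 40.4 CPM (counts per M counts, globin left out) in globin-rich libraries. The sums lay between 885 and 1379 CPM in globin-poor libraries, so 3 libraries labelled blood carry spleen markers and 3 labelled spleen nearly lack them. Of these markers Adgre1 alone overlapped between kinds (11.7 to 37.8 CPM in globin-rich, 35.0 to 57.5 CPM in globin-poor libraries). Every library is kept under its label. KO against WT is therefore also given within kinds, and blood against spleen within kinds or with kind in the model. Myo1c, from which nuclear myosin 1 is made along with other forms, was counted in every library, at 58.0 to 167 CPM in KO and 26.0 to 208 CPM in WT libraries, which checks neither the knockout nor the labels.

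Igkv transcripts took far less of the globin-rich than of the globin-poor libraries. The members summed to 681 to 1976 counts, with a median of 0.0131% of all counts (range 0.00657% to 0.0179%), in the globin-rich libraries. In the globin-poor libraries they summed to 11702 to 78614 counts, with a median of 0.112% (range 0.0506% to 0.312%). The kinds did not overlap, and with globin counts removed from the denominator the ranges were 0.0148% to 0.0353% and 0.0537% to 0.317%. Within the globin-poor kind the libraries labelled blood held 0.0558%, 0.0506% and 0.0698%, and those labelled spleen held 0.251%, 0.312% and 0.155%. The blood-labelled libraries were thus all below the spleen-labelled ones. Within the globin-rich kind they were 0.0179%, 0.0121% and 0.0173% under the blood label and 0.0142%, 0.00657% and 0.00920% under the spleen label, and these overlapped.

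Depth limits what a share can show. In the globin-rich libraries the widest 95% Wilson interval of any share was ± 1.67 points, and a segment with no count could hold up to 0.152% to 0.441% of Igkv counts. In the globin-poor libraries the widest interval was ± 0.728 points and the limit was 0.00382% to 0.0256%. Both measures take in counting error and nothing else, because PCR copies could not be told from separate molecules.

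**Figure D1:**
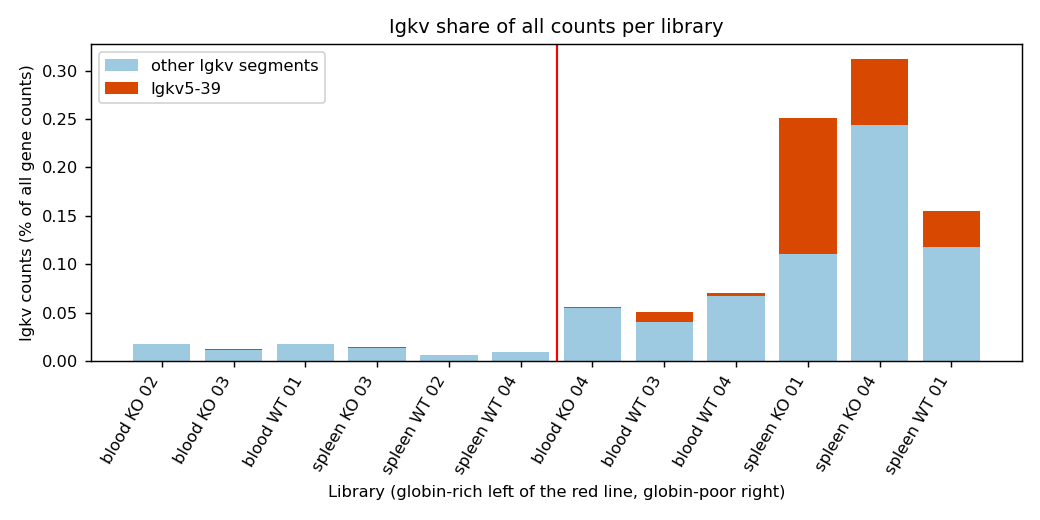
Igkv counts as a percentage of all gene counts in each library, with globin-rich libraries left of the red line and globin-poor ones right of it. Orange marks Igkv5-39 and blue the other 109 segments. The globin-rich bars reach at most 0.0179% and the globin-poor bars at least 0.0506%, and the largest orange part is in spleen KO 01.

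Usage in the globin-rich libraries was even and alike. Igkv1-135 led in 4 of the 6, in KO 02 blood with 4.66%, KO 03 blood with 6.18%, WT 01 blood with 5.87% and WT 04 spleen with 6.53%. Igkv6-15 led in the other two, KO 03 spleen with 5.25% (95% Wilson interval 4.29% to 6.41%) and WT 02 spleen with 5.14% (3.72% to 7.06%). No segment passed 6.53%, and 15 to 17 segments were needed to reach 50% of Igkv counts.

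The segments with the highest mean shares after Igkv5-39 were Igkv1-135 (4.16% over 12 libraries), Igkv10-96 (3.45%), Igkv1-117 (3.30%), Igkv6-15 (3.28%), Igkv1-110 (3.26%), Igkv6-23 (2.85%), Igkv14-111 (2.49%), Igkv3-4 (2.38%) and Igkv6-17 (2.37%). Neighbours in this order from Igkv10-96 to Igkv1-110 differ by less than their spread between libraries. Exon lengths ran from 200 to 404 bases, and by counts per exonic base 9 of the same 10 segments were in the first 10. Of all members, 34 had a mean share of at least 1% and 63 had counts in all 12 libraries.

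The order of use was similar in both kinds. Over the 110 members the mean shares in globin-rich and globin-poor libraries had a Spearman correlation of 0.916 and a Pearson correlation of 0.427. These points share their libraries and are a description. Igkv5-39 ranked 22 by mean share in the globin-rich libraries and 1 over all libraries.

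Igkv5-39 was the dominant segment of 4 globin-poor libraries. Its shares in the globin-rich libraries were 1.62% and 1.04% in KO blood, 0.911% in WT blood, 2.22% in KO spleen, and 3.08% and 2.22% in WT spleen. In the globin-poor libraries its shares were 2.22% in KO blood, 20.3% and 4.38% in WT blood, 55.7% and 21.8% in KO spleen and 23.7% in WT spleen. Within each kind the blood-labelled shares all lay below the spleen-labelled ones. Spleen KO 01 stood highest, with 39474 of 70825 Igkv counts (95% Wilson interval 55.4% to 56.1%), and there Igkv5-39 alone held over 50% of the counts. Blood KO 04, also globin-poor, stayed within the globin-rich range at 2.22%.

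The level of Igkv5-39 was tested in fits of all genes. The model held library kind, genotype, tissue label and the product of genotype and tissue label. Igkv5-39 was lower in globin-rich libraries by a log2 fold change of -4.19 ± 0.82 (SE, edgeR quasi-likelihood test, adjusted p = 0.00183). Normalised means were 4.45 ± 1.48 CPM in the globin-rich and 200 ± 255 CPM in the globin-poor libraries (SD, n = 6 each). Normalised CPM are scaled over the libraries of each comparison, here all 12, so a level in one comparison cannot be set beside a level in another. When library size was set to the Igkv total, so that fold changes are of usage, it was lower by -3.06 ± 0.59 (adjusted p = 0.000136). All 6 globin-rich libraries lay below all 6 globin-poor libraries in normalised CPM, but the usage shares of the kinds overlapped.

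**Figure D2:**
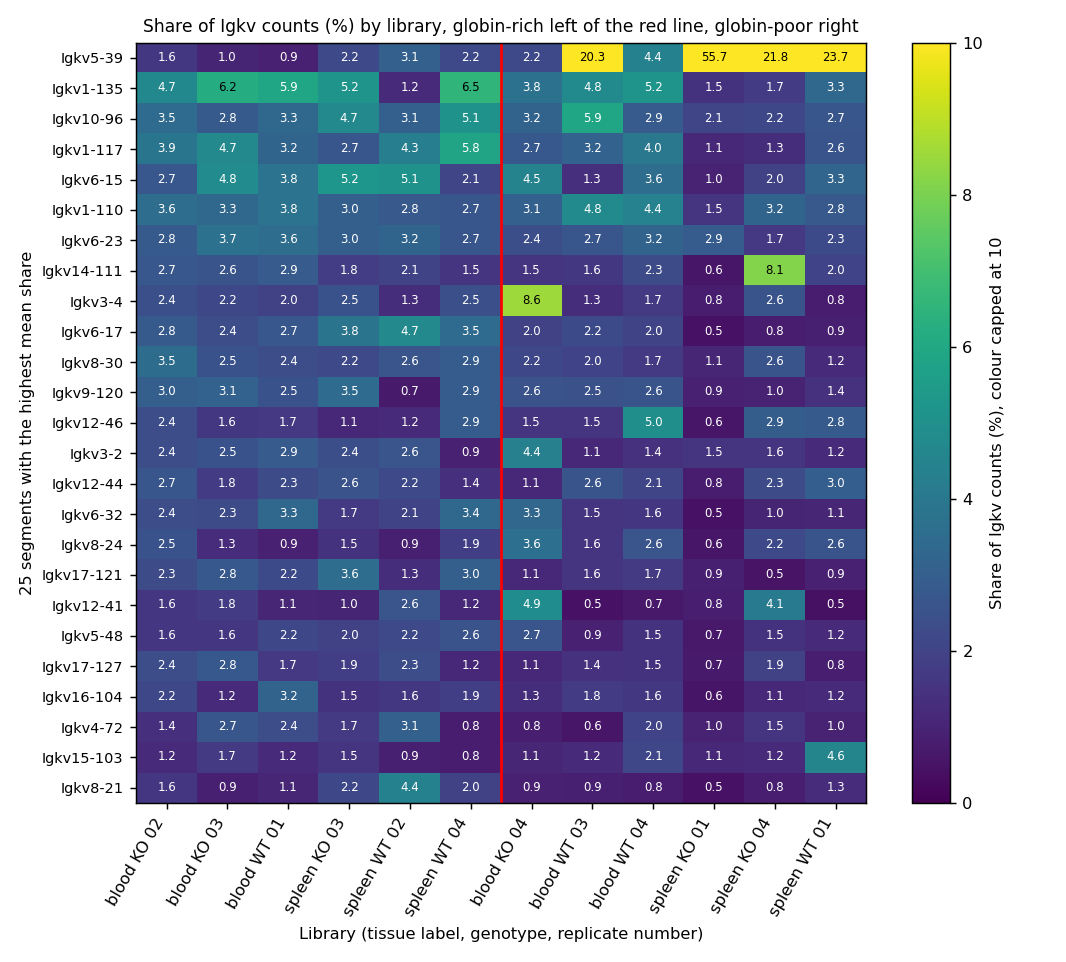
Usage shares (% of Igkv counts) of the 25 segments with the highest mean share, by library, with globin-rich libraries left of the red line and globin-poor ones right of it. Colour is capped at 10%. Igkv5-39 reaches 20.3% to 55.7% in 4 globin-poor libraries and at most 3.08% in the globin-rich ones.

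Other segments were raised in single libraries, Igkv10-96 only against other libraries of the same kind. Igkv3-4 held 8.55% in blood KO 04 (95% Wilson interval 8.09% to 9.04%), where it led, and 0.755% to 2.61% in the other 11 libraries. Igkv14-111 held 8.14% in spleen KO 04 and 0.624% to 2.88% in the others. Igkv10-96 held 5.87% in blood WT 03 and at most 3.17% in the other globin-poor libraries. Its next highest share, 5.13%, was in the globin-rich spleen WT 04.

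Second places in the globin-poor libraries went to a different segment in each library. They were Igkv12-41 in blood KO 04 (4.88%), Igkv10-96 in blood WT 03 (5.87%), Igkv12-46 in blood WT 04 (4.97%), Igkv13-85 in spleen KO 01 (3.58%), Igkv14-111 in spleen KO 04 (8.14%) and Igkv15-103 in spleen WT 01 (4.56%). Igkv13-85 had 56.4% unique windows, so some of its counts may belong to relatives. Among the first 10 segments by mean share, the median coefficient of variation of a share was 25.3% in the globin-rich and 49.1% in the globin-poor libraries.

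Evenness was summarised as the effective number of segments, the exponential of the Shannon entropy of the shares, which equals the number of equally used segments giving the same entropy. It was 58.5, 55.6 and 49.7 in KO blood (KO 02, KO 03, KO 04) and 56.8, 39.6 and 55.8 in WT blood (WT 01, WT 03, WT 04). In spleen it was 11.3, 54.2 and 36.5 in KO (KO 01, KO 03, KO 04) and 35.6, 55.5 and 49.8 in WT (WT 01, WT 02, WT 04). The lowest values were those of the 4 libraries led by Igkv5-39.

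By kind, the effective number averaged 55.0 ± 2.98 in the globin-rich and 38.1 ± 15.3 in the globin-poor libraries (SD, n = 6 each), a difference of 17.0 with overlapping ranges (49.8 to 58.5 and 11.3 to 55.8). With Igkv5-39 left out the averages were 54.1 ± 3.00 and 52.1 ± 2.40, a difference of 2.08, an alternative chosen after seeing the data. Random counting error on a single value was at most 1.64 (SE). That SE leaves out the lowering of entropy at few counts, which was not corrected and is largest in the globin-rich libraries. At the depth of the smallest library, 681 Igkv counts, 77.4 to 81.4 segments would be seen in the globin-rich and 64.3 to 79.8 in the globin-poor libraries. By label, the effective number averaged 52.7 ± 7.05 in blood-labelled and 40.5 ± 16.7 in spleen-labelled libraries (SD, n = 6 each). The difference of 12.2, beside a pooled SD of 12.8, came with overlapping ranges. Within the globin-rich kind blood-labelled values (55.6 to 58.5) lay above spleen-labelled ones (49.8 to 55.5), by less than counting error at the nearest pair. Within the globin-poor kind the ranges, 39.6 to 55.8 and 11.3 to 36.5, were also apart. No p-value is given for these scores over the members.

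**Figure D3:**
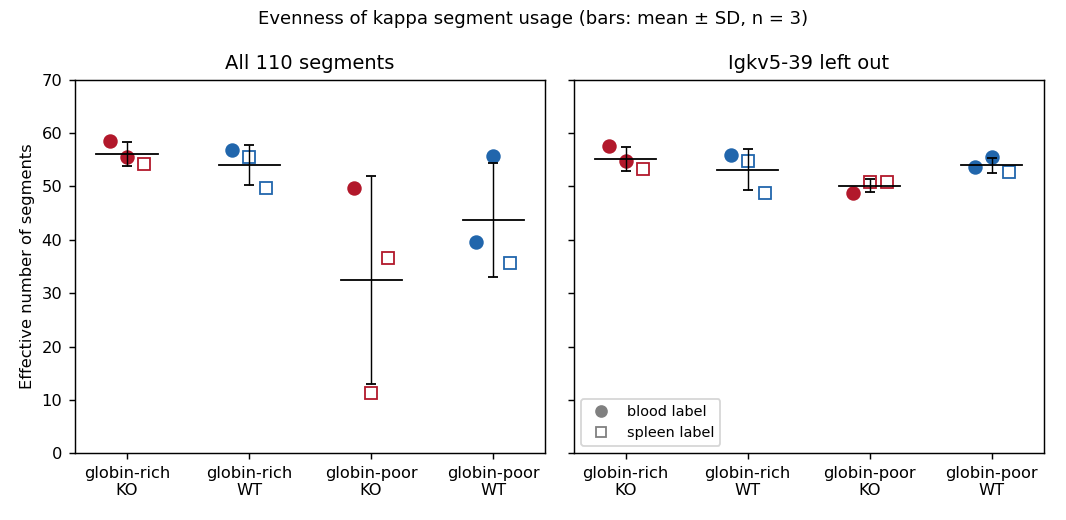
Effective number of segments per library, by kind and genotype, for all 110 segments (left) and with Igkv5-39 left out (right). Points are libraries, lines are means and bars are SD (n = 3). With Igkv5-39 all globin-poor KO and WT values run from 11.3 to 55.8, and without it all 12 libraries lie between 48.7 and 57.5.

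Genotype did not separate the effective numbers. In blood KO averaged 54.6 ± 4.47 and WT 50.7 ± 9.64 (SD, n = 3 each), a difference of 3.92 beside a pooled SD of 7.51, and it turned to -1.64 without blood WT 03. In spleen KO averaged 34.0 ± 21.5 and WT 47.0 ± 10.2, a difference of -13.0 beside a pooled SD of 16.9, and it was -1.61 without spleen KO 01. Within the globin-rich libraries KO averaged 56.1 ± 2.22 and WT 54.0 ± 3.73, a difference of 2.09. It was 0.880 without blood KO 02, 3.47 without blood WT 01 and -0.0290 without spleen WT 04. Within the globin-poor libraries KO averaged 32.5 ± 19.5 and WT 43.7 ± 10.7, a difference of -11.1. It was -19.7 without blood KO 04, -5.07 without blood WT 04 and -0.524 without spleen KO 01. In each comparison the ranges of KO and WT overlapped.

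The libraries of the globin-rich kind resembled each other most by an index of overlap, but not by rank correlation. The Morisita-Horn index, which is 0 for disjoint and 1 for identical usage, had a median of 0.895 (0.803 to 0.953) over the 15 pairs of globin-rich libraries. It was 0.641 (0.120 to 0.95) over the 15 globin-poor pairs and 0.475 over the 36 mixed pairs. With Igkv5-39 left out the medians were 0.896, 0.741 and 0.782. The lowest index, 0.0813, was between spleen KO 01 and blood WT 01. With Igkv5-39 left out the globin-poor pairs still ran only from 0.624 to 0.899, and spleen KO 01 with spleen KO 04 was the lowest of them. Spearman correlations of segment counts gave the other order. They ran from 0.795 to 0.894 over globin-rich pairs and from 0.875 to 0.949 over globin-poor pairs. Globin-rich libraries held fewer Igkv counts, and the part of depth in this order was not tested.

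**Figure D4:**
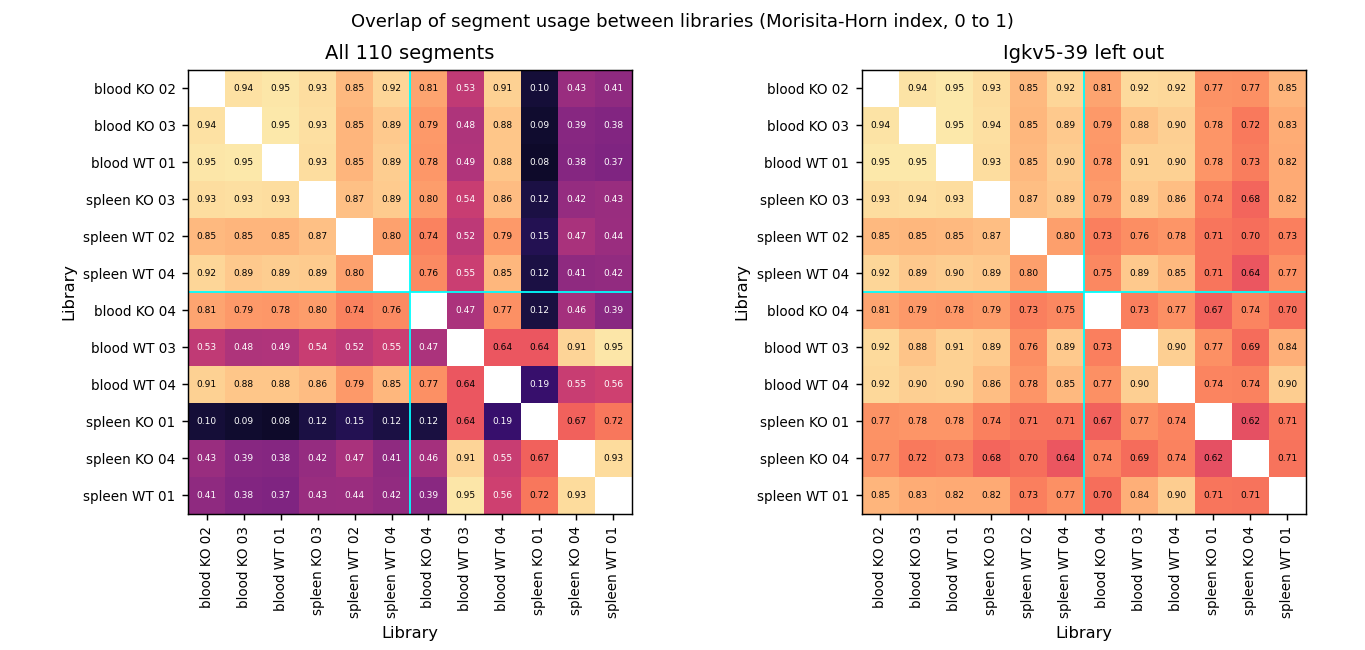
Morisita-Horn overlap of segment usage between each pair of libraries (0 disjoint, 1 identical), for all 110 segments (left) and without Igkv5-39 (right). Globin-rich libraries stand above and left of the cyan lines. Globin-rich pairs lie between 0.803 and 0.953 on the left, and globin-poor pairs between 0.120 and 0.95.

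Families of segments, named by the number after Igkv, share sequence. Igkv5 (5 members) held a mean of 5.31% in the globin-rich and 24.0% in the globin-poor libraries, of which Igkv5-39 held 1.85% and 21.3%. Igkv6 (9 members) ran the other way, with 14.3% to 18.9% in the globin-rich and 5.80% to 13.9% in the globin-poor libraries, which did not overlap. Igkv17 (2 members), at 3.67% to 5.51% and 1.61% to 3.15%, did not overlap either. The family with most members, Igkv4 with 31, held 12.9% to 15.99% and 8.48% to 17.2%, and Igkv1 with 9 held 9.84% to 16.9% and 4.45% to 15.2%. Shares sum to 100%, so a large Igkv5-39 share lowers every other share. Where Igkv5-39 held 2.22% (blood KO 04) and 4.38% (blood WT 04), Igkv6 held 13.9% and 12.2%, and Igkv17 held 2.22% and 3.15%. The part of Igkv5-39 in the family differences was not tested.

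Usage was only weakly correlated with position along the locus. The members lie 18.4 to 3112 kb from Igkj1, the first joining segment, and over the 98 genes the Spearman correlation of mean share with distance was -0.0479 in the globin-rich and 0.0229 in the globin-poor libraries. The most distal segment, Igkv1-135, was second by mean share, and Igkv3-4 lies among the nearest, 50 kb from Igkj1. The 37 plus-strand genes held 44.5% of Igkv counts in the globin-rich and 33.1% in the globin-poor libraries, and the 61 minus-strand genes, which include Igkv5-39, held 54.2% and 66.5%. Pseudogenes held 0.991% to 1.52% in the globin-rich and 0.186% to 0.522% in the globin-poor libraries. Segments under 80% unique windows held 28.1% to 30.7% and 13.6% to 27.5%. Neither range overlapped between kinds. Igkv5-39 is in neither set, so its large shares lower both ranges in the globin-poor libraries. The lowest share under 80% unique windows, 13.6%, was in spleen KO 01, where Igkv5-39 held 55.7%. In blood KO 04, where Igkv5-39 held 2.22%, it was 22.0%.

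**Figure D5:**
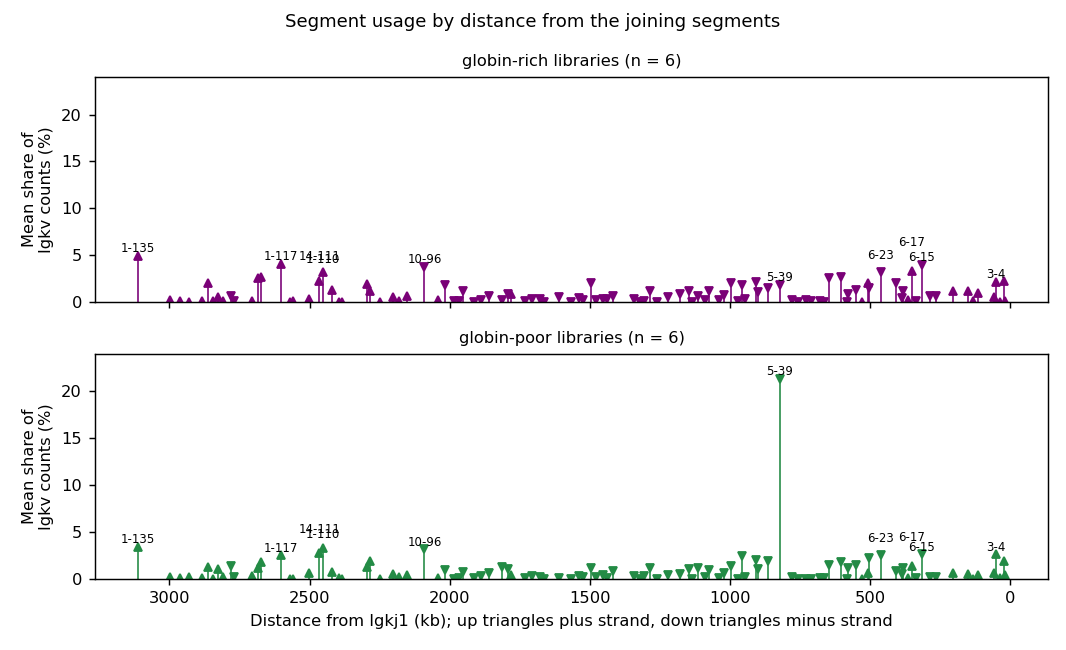
Mean usage share of each segment against its distance from Igkj1 in kb, for the 6 globin-rich (top) and 6 globin-poor libraries (bottom). Triangles pointing up are plus-strand and pointing down minus-strand segments, and the first 10 segments by mean share are named. Igkv5-39 stands at 1.85% in the top and 21.3% in the bottom panel.

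In blood no Igkv segment passed the test of KO against WT. Of 110 members 75 passed the filter on low counts, and edgeR called 0 of them and 0 of 14939 genes (0.0%) at an adjusted p under 0.05. At an unadjusted p under 0.05 edgeR had 1 member higher and 0 lower in KO, beside 7 genes higher (0.0469%) and 17 lower (0.114%), and DESeq2 and limma-voom called 0 members. Of the 75 members 40 stood above 0, with a median of 0.02 on the log2 scale, beside 45.8% and -0.05 over all genes tested. With 1 library left out that median ran from -0.09 to 0.13. Groups did not overlap for 5 members higher in KO (6.67% of 75, against 1.09% of all genes) and 1 lower (1.33%, against 1.97%).

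The member with the smallest p in blood was Igkv12-41. Its shares were 1.57%, 1.79% and 4.88% in KO and 1.06%, 0.487% and 0.678% in WT blood. Its log2 fold change was 1.91 ± 0.62 (edgeR, unadjusted p = 0.0199, adjusted p = 1.0), and KO 04 was highest. Igkv3-4, at 2.43%, 2.16% and 8.55% in KO and 1.97%, 1.30% and 1.70% in WT blood, had 1.41 ± 0.63. Igkv5-39, at 1.62%, 1.04% and 2.22% in KO and 0.911%, 20.3% and 4.38% in WT blood, had -2.35 ± 1.02, and its groups overlapped. Igkv4-79 and Igkv4-68 stood at -1.71 ± 0.97 and -1.07 ± 0.65, and Igkv3-2 at 0.79 ± 0.49. KO blood held 2 globin-rich libraries and WT blood 1. With library kind as a term edgeR also called 0 members in blood and in spleen.

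In spleen most members stood higher in KO, without a call. Of 81 members tested 69 were above 0 (85.2%, against 51.6% of 15362 genes), and their median log2 fold change was 0.78, beside 0.02 over all genes. That median was 0.10 without spleen KO 04 and 1.69 without spleen WT 01, and with library size set to the Igkv total it was -0.19, beside -0.86 over all genes. edgeR called 0 members and 0 genes (0.0%), with 6 members higher and 0 lower at an unadjusted p under 0.05, beside 0.508% of genes higher and 1.90% lower, and DESeq2 and limma-voom called 0 members. Groups did not overlap for 5 members higher in KO (6.17%, against 3.07% of all genes) and 0 lower (against 3.63%). KO spleen held 1 globin-rich library and WT spleen 2. The plasma cell marker sums were 2039, 252 and 2686 CPM in KO and 1737, 128 and 130 CPM in WT spleen, and their part in these differences was not tested.

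Named spleen members varied widely between libraries. Igkv5-39 averaged 297 ± 305 normalised CPM in KO and 53.0 ± 81.6 CPM in WT spleen (SD, n = 3 each), a log2 fold change of 2.48 ± 1.78 (edgeR, adjusted p = 0.989). Igkv3-4 had shares of 0.755%, 2.51% and 2.61% in KO and 0.761%, 1.32% and 2.45% in WT spleen, and a level difference of 1.80 ± 0.72 with overlapping groups. Igkv3-2 stood at 1.45 ± 0.58 and Igkv4-61 at 3.65 ± 1.46, where Igkv4-61 had 867 counts in KO 01 and at most 99 in any other library. Igkv12-41 stood at 2.55 ± 1.04 and Igkv14-111 at 2.41 ± 1.25. On the lower side were Igkv11-125 at -1.90 ± 1.38, Igkv3-1 at -1.35 ± 1.71 and Igkv4-77 at -0.998 ± 0.88.

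The KO effect was not shown to differ between the tissue labels. In a fit of all 12 libraries edgeR called 0 of 85 members and 0 of 16858 genes (0.0%) for the interaction, with 3 members below 0 and 0 above at an unadjusted p under 0.05, beside 0.214% of genes below and 0.801% above. DESeq2 and limma-voom also called 0 members. The 3 members were Igkv4-90 at -5.81 ± 1.94, Igkv4-92 at -4.92 ± 1.73 and Igkv2-112 at -3.02 ± 1.37, each a difference of log2 fold changes, blood minus spleen, with an adjusted p of 0.931. Igkv5-39 stood at -4.94 ± 2.29. Of the 85 members 13 stood above 0 (15.3%, against 43.0% of all genes). This model had no term for library kind. Globin-rich libraries were more of KO than of WT blood and fewer of KO than of WT spleen, so kind and interaction are mixed in these values. With library kind as a term edgeR also called 0 members.

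Between the kinds, 17 members were called lower in globin-rich libraries and 0 higher. The 17 are 20.0% of 85 members tested, beside 27.4% of 16858 genes called lower and 21.6% called higher, so the members' share of calls was below that of all genes. The members' median log2 fold change was -0.71, beside -0.13 over all genes. Igkv5-39, Igkv4-86 and Igkv2-112 did not overlap between kinds, which is 3.53% of members, against 17.7% of all genes lower. That median was -0.35 without spleen WT 01, -0.35 without spleen KO 03 and -0.44 without spleen KO 04. Members called lower numbered 7 without spleen WT 01, 8 without blood WT 04, spleen WT 02, spleen KO 01 or spleen KO 04 and 6 without spleen KO 03, each left out alone. Without spleen KO 03 edgeR also called 3 members higher, and without spleen KO 04 it called 1 higher.

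Among the called members, Igkv4-86 had 1 to 10 counts in the globin-rich and 134 to 483 in the globin-poor libraries. Its normalised level was 0.625 ± 0.475 CPM in the globin-rich and 5.62 ± 2.6 CPM in the globin-poor libraries (SD, n = 6 each), a log2 fold change of -3.06 ± 0.52 (edgeR, adjusted p = 0.000343). Igkv14-126 averaged 1.37 ± 0.699 and 6.62 ± 3.81 CPM, with -2.14 ± 0.37 (adjusted p = 0.00039) and overlapping kinds. The other called members ran from -3.33 for Igkv14-130 and -3.21 for Igkv3-1 to -1.02 for Igkv1-110 and -0.71 for Igkv10-96. Igkv1-135, Igkv1-117, Igkv6-15 and Igkv6-23, all in the first 10 by mean share, did not pass.

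On the usage scale 7 members were called higher in globin-rich libraries and 2 lower. These are 8.24% and 2.35% of the members, beside 39.7% and 6.57% of all genes on that scale, where the median log2 fold change was 0.37 over the members and 0.95 over all genes. The 7 were Igkv6-14 (1.78 ± 0.66), Igkv6-25 (1.75 ± 0.47), Igkv6-13 (1.63 ± 0.61), Igkv6-17 (1.41 ± 0.47), Igkv17-121 (1.35 ± 0.46), Igkv3-10 (1.27 ± 0.51) and Igkv10-94 (1.10 ± 0.45), and 4 of them belong to the Igkv6 family. The 2 lower were Igkv5-39 and Igkv4-86 (-2.03 ± 0.64).

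Within the globin-rich libraries KO and WT did not separate. edgeR called 0 of 44 members and 0 of 11728 genes (0.0%), with 0 members at an unadjusted p under 0.05, beside 1.61% of genes higher and 5.20% lower. DESeq2 called 0 members, 0 genes higher and 31 genes lower (0.264%). Above 0 stood 30 of the 44 members (68.2%, against 49.6% of all genes). Groups did not overlap for 4 members higher in KO (9.09%, against 6.80% of all genes) and 1 lower (2.27%, against 6.68%). The lower member, Igkv4-57, had shares of 0.759%, 0.744% and 0.350% in KO and 1.47%, 1.32% and 2.45% in WT libraries, with -1.37 ± 0.67 (edgeR, adjusted p = 0.735). Igkv5-39 stood at -0.12 ± 0.50.

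Within the globin-poor libraries the call of 5 segments depended on the tool. edgeR called 0 of 90 members and 0 of 16422 genes (0.0%), with 138 genes at an unadjusted p under 0.05. Of these, 15 were members, all higher in KO, which is 16.7% of members against 0.39% of all genes higher. Above 0 stood 76 of the 90 members (84.4%, against 49.3%). Their median log2 fold change was 0.62, 0.19 with tissue label as a term and -0.0053 without spleen KO 04. DESeq2 called 5 members, Igkv12-41 and Igkv9-124 (adjusted p = 7.24e-05 each), Igkv3-4 (0.0199), Igkv14-130 and Igkv3-2 (0.0274 each), all higher in KO. They were 5.56% of the members and the only genes of the table that DESeq2 called (0.0304%). Groups did not overlap for 7 members higher in KO (7.78%, against 1.93%) and 1 lower (1.11%, against 1.91%).

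Igkv9-124 had shares of 2.94%, 0.871% and 2.35% in KO 04 blood, KO 01 spleen and KO 04 spleen, and of 0.684%, 0.678% and 0.393% in WT 03 blood, WT 04 blood and WT 01 spleen. Its log2 fold change was 2.88 ± 0.51 (edgeR, unadjusted p = 0.000712, adjusted p = 1.0). Igkv12-41, at 4.88%, 0.850% and 4.12% in those KO and 0.487%, 0.678% and 0.465% in those WT libraries, had 3.55 ± 0.71. All 3 KO libraries stood above all 3 WT libraries for both segments, and spleen-labelled libraries were 2 of the 3 KO and 1 of the 3 WT libraries. The highest shares of both segments were in blood KO 04 and spleen KO 04. Over 33 segments with a mean share of at least 1% (Igkv5-39 left out), that pair held both highest globin-poor shares of 3, and blood WT 03 with blood WT 04, the pair with most, of 7. Igkv5-39 averaged 657 ± 676 CPM in KO and 156 ± 146 CPM in WT libraries (SD, n = 3 each, normalised over the 6 globin-poor libraries alone), with 2.08 ± 1.39 and overlapping groups.

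Between the labels, with library kind and genotype in the model, edgeR called 0 of 85 members and 5 of 16858 genes (0.0297%), 2 higher (0.0119%) and 3 lower (0.0178%) in blood. At an unadjusted p under 0.05 there were 15 members lower in blood (17.6%, against 5.29% of genes) and 0 higher (against 5.04%), and DESeq2 called Igkv8-21, Igkv4-53, Igkv5-39 and Igkv6-25 lower (4.71%, against 1.45% of genes lower and 0.955% higher). By limma-voom 8 members were called, all lower, beside 167 genes lower and 428 higher. Igkv8-21, the member without overlap (1.18%, against 0.148% of all genes lower), averaged 2.95 ± 0.721 CPM in blood-labelled and 7.29 ± 2.35 CPM in spleen-labelled libraries (SD, n = 6 each), a log2 fold change of -1.33 ± 0.27 (edgeR, adjusted p = 0.107). Igkv5-39 stood at -2.35 ± 0.70 (adjusted p = 0.267).

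Other antibody genes did not all move with the Igkv segments. Of 15 tested genes among the light chain constant, joining and lambda variable genes, 5 were higher and 5 lower in globin-rich libraries, where 21.6% of all genes were called higher and 27.4% lower. Igkc, the constant exon, was lower by -2.13 ± 0.27 (edgeR, adjusted p = 3.08e-05), while the joining segments Igkj1 to Igkj5 were called higher by 1.93 to 2.78. Before scaling, summed Igkj counts were 38 to 198 in the globin-rich and 29 to 484 in the globin-poor libraries, where total counts were larger. Those ranges overlapped, so the Igkj fold changes are of normalised levels and rest on the scaling. Igkv counts per Igkc count were 0.454 to 0.709 in the globin-rich and 0.168 to 0.372 in the globin-poor libraries. Lambda genes gave 21.0% to 23.1% of light chain constant counts in the globin-rich and 6.08% to 16.6% in the globin-poor libraries.

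Markers of plasma cells and of B cells are given beside these values. Of 11 plasma cell markers 7 were lower in globin-rich libraries, against 27.4% of all genes, led by Jchain, which links secreted antibody units (-7.06 ± 0.30), and Derl3, of the protein folding machinery (-4.67 ± 0.50). Of 17 tested B cell and rearrangement genes 4 were higher, a share near the 21.6% of all genes called higher, among them the B cell surface genes Fcer2a (1.29 ± 0.19) and Ms4a1 (0.65 ± 0.23), and 1, Cr2, was lower (-1.15 ± 0.21). Plasma cell marker sums lay between 128 and 252 CPM in globin-rich libraries and between 816 and 2686 CPM in globin-poor ones. B cell markers (8 genes) summed to 1187 to 2994 CPM within the globin-rich kind. Within the globin-poor kind their sums were 2796 to 5422 CPM, a higher range with some overlap. With globin left out, Ms4a1 also had a lower range in the globin-rich kind (115 to 292, against 166 to 407 CPM). Fcer2a did not (129 to 330, against 120 to 256 CPM). The fold changes above are of normalised levels. The part of either cell type in the Igkv differences was not tested. Heavy chain variable segments had an effective number of 46.7 to 62.2 in the globin-rich and 32.3 to 57.7 in the globin-poor libraries, where the lowest was again spleen KO 01, led by Ighv9-3 with 26.4%.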

How the data were processed

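Gene counts per library were deposited by the authors as whole numbers, not normalised. Per the submitters' processing notes, the tools were HISAT2 2.0.4, HTSeq, Trimmomatic 0.36, SAMtools 0.1.19 and FastQC, and the build was GRCm38 (mm10). The annotation release, strand setting and treatment of multi-mapped reads are not given in the sources used here. Symbols and positions came from GENCODE vM21, which held 46091 of 46603 identifiers. The Igkv members and gene lists were chosen with earlier results of these data known.

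Usage shares, effective numbers and Morisita-Horn indices were computed in Python 3.11.15 (pandas 2.3.3, scipy 1.17.1, matplotlib 3.10.9). Fold changes came from edgeR 4.0.16 quasi-likelihood fits of all genes (R 4.3.3, TMM scaling, filterByExpr), with Benjamini-Hochberg adjustment over all genes and a threshold of 0.05. The SE of an edgeR fold change was taken as its absolute value divided by the square root of the F statistic. The procedure was also run on simulated counts drawn from a common mean profile with a fixed spread. These held no library kinds, so that run does not show how the fits perform on such libraries. Named segments were the 10 with the highest mean share, those leading or reaching 5% in any library, those next to the count threshold, and up to 3 with the smallest p in each direction per comparison; others named were chosen after their values were seen. Alternatives were DESeq2 1.42.0, limma-voom (limma 3.58.1), other scalings and filters, a replicate block, and each library left out. Intervals are 95% Wilson intervals, and the limit for a segment without counts is 3 counts.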

Additional observations from a re-analysis of the deposited data

Results flagged for a closer look

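Within the 6 libraries of a kind, 36 groups of values were examined for a library far from the others, and 5 were found. Chance alone marks about 1 in 20 such groups where values are normally distributed, which was not tested here. Shares of the same library also depend on each other, so the 5 cannot be set against that rate. Among globin-poor libraries the share of the leading segment was 55.7% in spleen KO 01, against 5.16% to 23.7% in the other 5. Igkv14-111 held 8.14% in spleen KO 04, against 0.624% to 2.34%. Igkv3-4 held 8.55% in blood KO 04, against 0.755% to 2.61%. Igkv10-96 held 5.87% in blood WT 03, against 2.07% to 3.17%. Among globin-rich libraries Igkv1-135 held 1.17% in spleen WT 02, which had 681 Igkv counts, against 4.66% to 6.53% in the other 5.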

How the results depend on the processing

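Between kinds 17 members were called, all lower in globin-rich libraries, beside 8250 of 16858 genes in either direction. With library size alone as scaling 77 were called, all lower, beside 14118 genes, and with the Igkv total as library size 9, of which 7 were higher and 2 lower, beside 7794 genes. These scalings moved the median log2 fold change of all genes to -2.12 and 0.95. Without a filter 40 were called (1 higher, 39 lower), beside 12580 of 35650 genes, and with at least 5 CPM in 3 libraries 9 (1 higher, 8 lower), beside 6421 of 11485. By limma-voom 11 were called and with library kind as the only term 30, all lower, beside 8659 and 9160 genes. DESeq2 called all 17, limma-voom shared 9 of them, and 4 were called in every fit that left 1 library out, where the count in either direction ran from 7 to 16. With only globin-rich blood and globin-poor spleen libraries, an alternative chosen after seeing the data, the count was 30, all lower, beside 6979 of 16996 genes, the effective number differed by 29.1 and the Igkv share of all counts by -0.223 points, against -0.136 over all libraries. The effective number difference of 17.0 ran from 11.6 to 20.5 with 1 library left out and was 2.08 without Igkv5-39. KO minus WT differences ran from -1.64 to 6.94 in blood, -23.04 to -1.61 in spleen, -0.0290 to 3.47 in globin-rich and -19.7 to -0.524 in globin-poor libraries, and blood minus spleen from 6.35 to 15.2. DESeq2 called 5 members for KO against WT in globin-poor libraries. For blood against spleen labels 12 were called without a filter, beside 449 genes, 4 by DESeq2, beside 405, and 8 by limma-voom, beside 595, all members lower in blood. The leading share of 55.7% was 57.2% per exonic base and 64.5% without segments under 80% unique windows. With the scalings that moved the median of all genes, Igkv10-96 (0.38) and Igkv1-110 (0.062) stood above 0 on the Igkv total scale, and Igkv6-17 (-1.69) and Igkv6-25 (-1.27) below 0 with library size alone, signs that follow from those shifts. Of 1906 single-segment values, 1840 kept direction and side of the threshold. The cause of the changes under other filters, tools and left-out libraries was not tested.

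Deviations from group means correlated at 0.55 to 0.75 in the 4 same-numbered pairs of libraries of the same kind, and at -0.72 to -0.53 in the 4 same-numbered pairs of different kinds. The pairs were KO with WT within a label and blood with spleen within a genotype. The sign followed library kind, so the check cannot show whether replicate numbers pair libraries. With a replicate block in edgeR 0 members were called for KO against WT in blood and in spleen. For the difference between labels of the KO effect, for kinds and for labels, the block was fitted in limma-voom as a correlation between same-numbered libraries, so tool and block changed together. It called 0 members for the difference and 11 between kinds, the counts limma-voom gave without it, and 10 between labels, against 8 without it.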
